A study of Mus musculus with 6 samples.

Results

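The genes described are 10 imprinted genes of the mouse, H19, Igf2, Igf2r, Airn, Cdkn1c, Kcnq1ot1, Peg3, Mest, Plagl1 and Grb10, out of 21837 genes in a table of RefSeq transcripts. They were chosen by name, and where a gene had more than 1 transcript the one with the highest mean value was used, which reduced 17 table entries to 10. The study sequenced poly-A RNA from mouse embryonic fibroblasts (MEFs) before and after tumor necrosis factor alpha (TNFα), a cytokine that activates NF-κB, and asked which transcripts respond to it. There were 4 RNA-seq libraries, 1 untreated and 1 each at 1.5, 6 and 24 hr of TNFα at 20 ng/ml. Untreated MEFs also gave 1 chromatin immunoprecipitation (ChIP-seq) library for H3K4me3, a histone mark of active and poised promoters, and 1 input library. All MEFs were primary, wildtype, of the strain label C57BL/6x 129, taken from littermate embryos at day 13.5 and passaged 4 times.

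An imprinted gene is expressed mainly from the copy inherited from 1 parent, and the copies are set apart by DNA methylation laid down in the egg or sperm. H19, a noncoding RNA made from the maternal copy, and Igf2, a fetal growth factor made from the paternal copy, lie next to each other and share enhancers, to which a CTCF-bound control region gives access on one copy or the other. Airn and Kcnq1ot1 are long noncoding RNAs of the paternal copy that run antisense to protein-coding genes and are needed for silencing in cis, and many of the other members restrain or promote growth of the embryo. The deposited values sum both parental copies, so nothing below is a measure of imprinting itself.

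Values are in the deposited RPKM units (reads per kilobase of transcript, scaled to the size of the library, on a scale of their own). Each library had a pair of columns, R1 and R2, whose mean was its value. What R1 and R2 stand for is not given in the sources used here, so they were not used as replicates. With 1 library per time there was no replicate check and no test: a difference below compares libraries, and its part from the TNFα treatment cannot be told apart from a difference between those libraries. The libraries also differed as a whole. Over the 6251 genes with a mean of at least 100 units, the median log2 ratio to untreated was 0.43, -0.73 and 0.09 in the 1.5, 6 and 24 hr libraries, so each log2 ratio below is given after this median was subtracted ("relative to the median gene"), with 1 unit added to each value first, which understates the change of low genes. A gene was called higher or lower at 2-fold, a log2 ratio of 1 on this scale. By this subtraction a 6 hr ratio printed between 0 and 0.73 was below 0 as deposited, and a 1.5 hr ratio printed between -0.43 and 0 was above it. Ratios also moved with the GC content of a transcript, and values centred within 20 bins of GC content are given beside the members where they end a call or turn a sign. As a check, 8 of 8 listed TNFα response genes were called higher at every time, where 16.1%, 7.37% and 14.6% of all genes were. Among them was Nfkbia, the inhibitor of NF-κB, at 4.06, 3.78 and 4.08 on the log2 scale. The check is not independent: the list was chosen with earlier results of these data known, and the study itself reports Nfkbia, Relb and Sod2 as induced. Some listed genes, such as Tnfaip3 at 7.13 units untreated, reached the level of 100 only through treated libraries.

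Markers of fibroblasts were high, as the label of the cells has it. Of 10 fibroblast markers 9 had a mean of at least 100 units, Col1a1 among them at 44002 in the untreated library, whereas the summed value of 5 endothelial markers was between 2.29 and 6.93 and that of 6 epithelial markers at most 50.8. Of 7 skeletal muscle markers 2 passed this level, and the list summed to 2486, 6910, 1541 and 4315 units in time order. Most of that sum was Acta1, a sarcomeric actin, at 2118, 6688, 1354 and 4134, with Des at 317 untreated, while Myod1, which defines the lineage, was listed at 0 in all 4 libraries. Of 6 macrophage markers 3 passed the level of 100 (Csf1r, Cd68 and Cd14), and their summed value with the others was 1043, 1794, 513 and 919 at 0, 1.5, 6 and 24 hr. These markers went different ways: Cd14 was called higher at each time (2.59, 2.22 and 2.51), whereas Csf1r (-0.47, -0.97 and -1.34) and Cd68 (0.01, -0.85 and -1.05) were called lower at 24 hr, where H19, Airn and Cdkn1c were too. Fibroblast markers also went different ways at 24 hr, where 14.6% of all genes were called higher and 15.6% lower. Of the 9 that passed, 2 were called higher there (Vim at 1.40 and Dcn at 1.41). Another 3 were called lower (Col1a1 at -1.95, Col3a1 at -1.23 and Pdgfrb at -1.27). The part of any of these cell types in the results below was not tested.

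H19 is the most abundant member, and its product is a spliced RNA that also carries the precursor of miR-675. Its single entry (NR_001592, chr7:149761434-149764048 on the minus strand of mm9) stood at 39603 units in the untreated library, the 19th highest of all genes. In the 1.5, 6 and 24 hr libraries it measured 27671, 8393 and 9928. Each treated library was below the untreated one, whose R1 and R2 columns held 40240 and 38966, and the 6 and 24 hr libraries lay near each other. Relative to the median gene, H19 was at -0.95, -1.51 and -2.09, which is 4.26-fold lower at 24 hr, whereas without centring the 6 hr library was the lower of the last pair, with 0.212 of the untreated value against 0.251. At 6 hr only 27 of the 6251 genes, H19 included, were as low or lower. The H19 ratio was below 0 at all 3 times under each scaling tried, from -0.49 within bins of GC content to -0.96 with the median of coding genes at 1.5 hr, and past 2-fold at 6 and 24 hr in each.

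The miRNA of H19 is shown because its hairpin has an entry of its own in the table and because it sits inside the H19 transcript. The Mir675 hairpin lies at chr7:149762969-149763052 on the minus strand, within an annotated exon of H19. Its mature forms, as listed by RefSeq, are printed with the seed (bases 2 to 8, the part that pairs with targets) in capitals.
mmu-miR-675-5p: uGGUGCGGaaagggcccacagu
mmu-miR-675-3p: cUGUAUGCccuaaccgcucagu
The Mir675 entry held 75317, 45688, 8201 and 14099 units at 0, 1.5, 6 and 24 hr, and was at -1.15, -2.47 and -2.51 relative to the median gene. It was on the same side as H19 at every time, except that within bins of GC content its 1.5 hr value was 0.03. Per length, Mir675 was 1.90, 1.65, 0.98 and 1.42 times H19 in time order. Reads over a hairpin in a poly-A library come from the host RNA and cannot be told apart from it, so this entry is a reading of a short stretch of H19 and not of mature miR-675. The entries of the other hosted miRNAs were low, Mir483 in Igf2 at 26.8, 0, 2.08 and 13.2 units and Mir335 in Mest at 1.30 and then 0 in each treated library.

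Igf2, the growth factor next to H19 (NM_001122737, chr7:149836673-149852721, minus strand), went a different way. It stood at 2833 units untreated and at 6980, 1551 and 4296 in the 1.5, 6 and 24 hr libraries, and ranked 360th among all genes in the untreated library. The 1.5 and 24 hr libraries were above the untreated one and the 6 hr library was below it. Relative to the median gene it was at 0.87, -0.14 and 0.51, so it was called at no time; its 6 hr value took the opposite sign, 0.09, when genes were centred within bins of GC content, and its 1.5 hr value passed 2-fold there, at 1.32. The other 2 Igf2 entries share reads with this one, and the one farther from it was at 0.81, -0.12 and 0.48.

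Since both genes were measured per length in the same library, their quotient does not depend on how libraries were scaled. The H19 value was 14.0 times the Igf2 value in the untreated library, and 3.96, 5.41 and 2.31 times in the 1.5, 6 and 24 hr libraries. On the log2 scale the quotient was 3.80, 1.99, 2.43 and 1.21, with 3.80 from R1 and 3.81 from R2 in the untreated library and 1.21 from either at 24 hr. The untreated library had the highest quotient and the 24 hr library the lowest, with H19 above Igf2 in all 4.

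**Figure D1:**
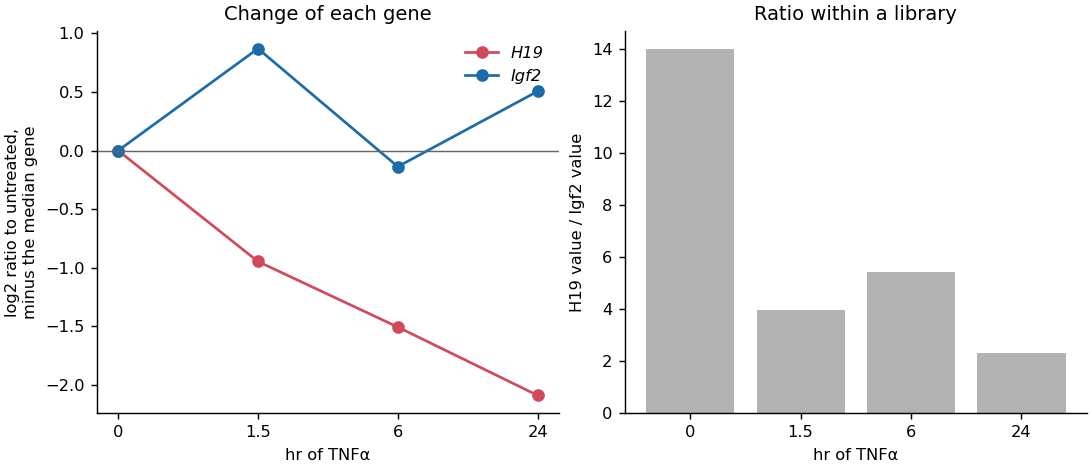
Left, log2 ratio to the untreated library minus that of the median gene, for H19 (red) and Igf2 (blue) at 0, 1.5, 6 and 24 hr of TNFα; right, the H19 value divided by the Igf2 value in each library, bars from 0. H19 is at -0.95, -1.51 and -2.09, Igf2 at 0.87, -0.14 and 0.51, and the quotient is 14.0 untreated and 2.31 at 24 hr, with 1 library per time.

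The genes whose pattern was nearest to each of the pair, by Euclidean distance over the 3 log2 ratios among 6243 other genes, were then sought, and the 3 nearest taken. For H19 they were Pld4 (distance 0.29), Mir199a-2 (0.43) and Wisp2 (0.47). Pld4 was at -1.12, -1.31 and -1.95. For Igf2 they were Ddb1, a subunit of a ubiquitin ligase that acts in DNA repair (0.05), Cdc20, an activator of the anaphase-promoting complex (0.08), and Dcps, the scavenger decapping enzyme (0.08). Ddb1 was at 0.87, -0.13 and 0.55. The H19 neighbours in pattern were thus farther from it than those of Igf2, and all of them had lower levels than H19.

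Igf2r is the receptor that takes IGF2 to the lysosome and so removes it (NM_010515, chr17:12875272-12962530, minus strand). It measured 578 units untreated, then 751, 257 and 376 in time order. On the centred log2 scale Igf2r was at -0.05, -0.43 and -0.71 and passed 2-fold at no time, and its 1.5 hr sign turned as deposited, to 0.38. The Igf2 value was 4.90 times the Igf2r value in the untreated library, and 9.29, 6.03 and 11.4 times at 1.5, 6 and 24 hr. The ligand was thus higher relative to this receptor in each treated library than before treatment.

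Airn starts inside Igf2r and is transcribed in the opposite direction (NR_002853, chr17:12934177-13052988, plus strand). Of its annotated span, 28354 bp (23.9%) overlap Igf2r. With all annotated Igf2r transcripts pooled, 5 of 53 distinct exon intervals lie inside that span. An exon with other ends in another transcript is counted again, so these are not numbers of exons in 1 transcript. Airn stood at 240 units untreated and at 95.2, 210 and 102 in the 1.5, 6 and 24 hr libraries. The untreated and 6 hr libraries were high and the 1.5 and 24 hr libraries low, with no overlap between their R1 and R2 columns. Relative to the median gene it was at -1.76, 0.54 and -1.32, called lower at 1.5 and 24 hr and not at 6 hr, where the sign turned as deposited, to -0.19. Entry NR_027784 had nearly the same values, at -1.63, 0.42 and -1.25. With 100 units added to each value the 24 hr ratio was -0.82, short of 2-fold. A further 2 entries were low, at 57.6 and 40.4 units untreated, with R2 several times R1, and were below the median gene at all 3 times, at -0.79 and -0.81 at 6 hr. Whether counting used the strand is not given in the sources used here, so reads of Igf2r and Airn in the overlap may not be separated.

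The quotient of Igf2r to Airn was 2.40, 7.89, 1.22 and 3.69 in the 4 libraries in time order, highest in the pair of libraries where Airn was low. Some noncoding RNAs that stay in the nucleus were also low at 1.5 and 24 hr. Neat1, the scaffold of paraspeckles, was at -2.70, 0.62 and -2.39, and Malat1, an RNA of nuclear speckles, at -1.99, 0.16 and -1.82 (-0.36 at 6 hr within bins of GC content). Of 5 listed RNAs of this kind 4 were called lower at 1.5 hr and 4 at 24 hr, where 17.5% and 15.6% of all genes were, and 0 at 6 hr. Meg3, Rian and Mirg of this list are also counted below among imprinted genes of other domains, so these lists are not separate. Rian was above the median gene, at 0.72, 0.30 and 0.93, but within bins of GC content it was at -0.24, -0.35 and 0.05. Mirg was below the median gene at each time, at -1.21, -0.26 and -1.12. The part of this shared movement in the Airn values was not tested.

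Cdkn1c encodes the p57 inhibitor of cyclin-dependent kinases, a brake on growth made from the maternal copy (NM_009876, chr7:150644255-150646955, minus strand). Its values were 573 units untreated and 315, 129 and 190 at the later times. All 3 treated libraries were below the untreated one and the 6 hr library was the lowest. On the centred log2 scale Cdkn1c was at -1.29, -1.41 and -1.68, so it was called lower at every time. Its transcript had the highest GC content of the members with a value (59.7%), and centring within bins of GC content gave -0.45 at 1.5 hr and -0.95 at 24 hr, both short of 2-fold, and -1.31 at 6 hr.

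Kcnq1ot1, the noncoding RNA needed to silence Cdkn1c on the paternal copy (NR_001461, start at position 150482452 of chromosome 7, minus strand), was the lowest member. It stood at 32.9, 22.4, 20.5 and 22.8 units at 0, 1.5, 6 and 24 hr, or about 1.43, 1.02, 0.79 and 1.17 reads over each base by the step size of low values. It did not reach the level of 100 units. Relative to the median gene it was at -0.96, 0.08 and -0.60, with the 6 hr sign turned as deposited, to -0.65. The Cdkn1c value was 17.4, 14.0, 6.27 and 8.33 times that of Kcnq1ot1 in the same order. The quotient was lowest at 6 hr, where Cdkn1c was lowest.

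Peg3, a paternally expressed zinc finger protein (NM_008817, chr7:6656603-6683132, minus strand), measured 369 units untreated and 288, 95.2 and 218 after 1.5, 6 and 24 hr. Every treated library was below the untreated one. Its log2 ratio to untreated, less that of the median gene, was -0.79, -1.21 and -0.85, so Peg3 was called lower at 6 hr. With 100 units added to each value the 6 hr ratio was -0.79, short of 2-fold, while within bins of GC content Peg3 passed it at each time, at -1.36, -1.46 and -1.38.

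Mest, a paternally expressed member of the alpha/beta hydrolase family (NM_008590, chr6:30673547-30698457, plus strand), stood at 134 and 175 units in the untreated and 1.5 hr libraries and at 35.9 and 28.1 in the 6 and 24 hr libraries. The first pair of libraries was high and the last pair low. Relative to the median gene it was at -0.04, -1.14 and -2.30, 4.93-fold lower at 24 hr, though its mean of 93.2 units missed the level of 100 and it was left out of the counts; its 1.5 hr sign turned as deposited, to 0.39. With 100 units added to each value the 6 and 24 hr ratios were -0.31 and -0.93, short of 2-fold.

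Plagl1, a zinc finger transcription factor that acts on other imprinted genes (NM_009538, chr10:12810497-12851500, plus strand), measured 135, 248, 73.6 and 87.0 units at 0, 1.5, 6 and 24 hr. It was highest at 1.5 hr. The centred log2 ratios of Plagl1 were 0.44, -0.14 and -0.73, and it was called at no time; within bins of GC content its 1.5 hr value turned to -0.13 and its 24 hr value passed 2-fold, at -1.26.

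Grb10, an adaptor that binds insulin and IGF receptors and restrains growth (NM_010345, chr11:11830511-11938686, minus strand), measured 571, 1705, 323 and 743 units. The 1.5 hr library was well above the other 3. Relative to the median gene it was at 1.15, -0.09 and 0.29, which made it the single member called higher at any time. Within bins of GC content it was at 0.63 at 1.5 hr, short of 2-fold, and its 24 hr value turned to -0.22. The second Grb10 entry gave 1.16, -0.06 and 0.30.

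**Figure D2:**
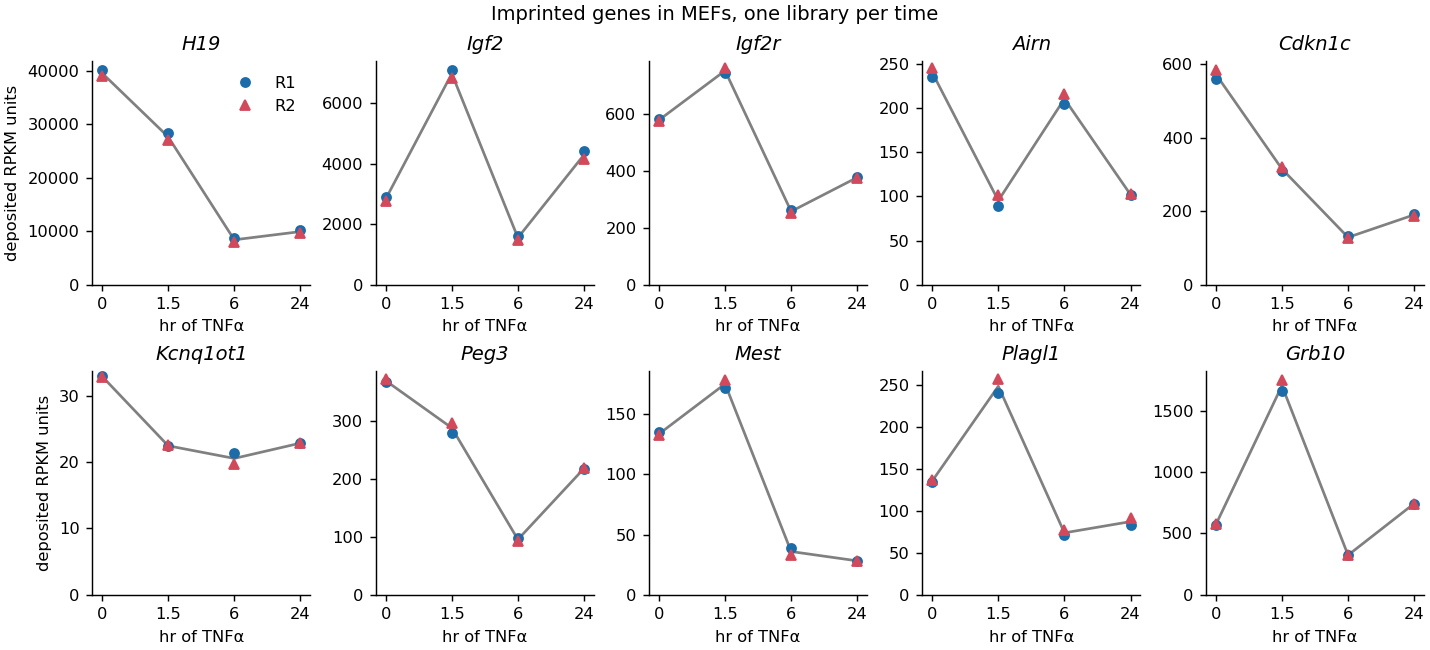
Values of the 10 imprinted genes in deposited RPKM units (each panel has its own axis from 0) against hr of TNFα, with R1 as circles, R2 as triangles and the line through their mean, 1 library per time. H19 goes from 39603 to 9928, Cdkn1c from 573 to 190 and Mest from 134 to 28.1, whereas Igf2, Plagl1 and Grb10 are highest at 1.5 hr and Airn is low at 1.5 and 24 hr.

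In the untreated library the order of levels was H19, Igf2, Igf2r, Cdkn1c, Grb10, Peg3, Airn, Plagl1, Mest and Kcnq1ot1. Igf2r, Cdkn1c and Grb10 (578, 573 and 571 units) overlapped in their R1 and R2 columns, as did Plagl1 and Mest (135 and 134). The remaining steps in this order were larger than the spread of the columns, which is no measure of biological spread.

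Of the 10 members, 8 had a mean of at least 100 units. At 1.5 hr 1 of them was called higher (Grb10) and 2 lower (Airn and Cdkn1c), where 16.1% of the 6251 genes were called higher and 17.5% lower. At 6 hr 0 were called higher and 3 lower (H19, Cdkn1c and Peg3), against 7.37% and 3.52% of all genes. At 24 hr 0 were called higher and 3 lower (H19, Airn and Cdkn1c), against 14.6% and 15.6%. The counts at 1.5 hr were thus near the background for so few genes, while those called lower at 6 hr were 3 of 8 where the background is 3.52%. This 6 hr count was 2 with 100 units added to each value and 0 at 3-fold. The members were chosen with earlier results of these data known, so it is no test of an excess. With Mest, which missed the level, 4 of 10 were lower at 6 hr and 4 of 10 at 24 hr. The median of the 10 members was -0.42, -0.29 and -0.79 in time order, where the median gene is at 0 by construction, and 7, 8 and 8 of the 10 were below it. Without centring, 2 members were higher at 1.5 hr (Igf2 with Grb10) and 1 lower (Airn).

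**Figure D3:**
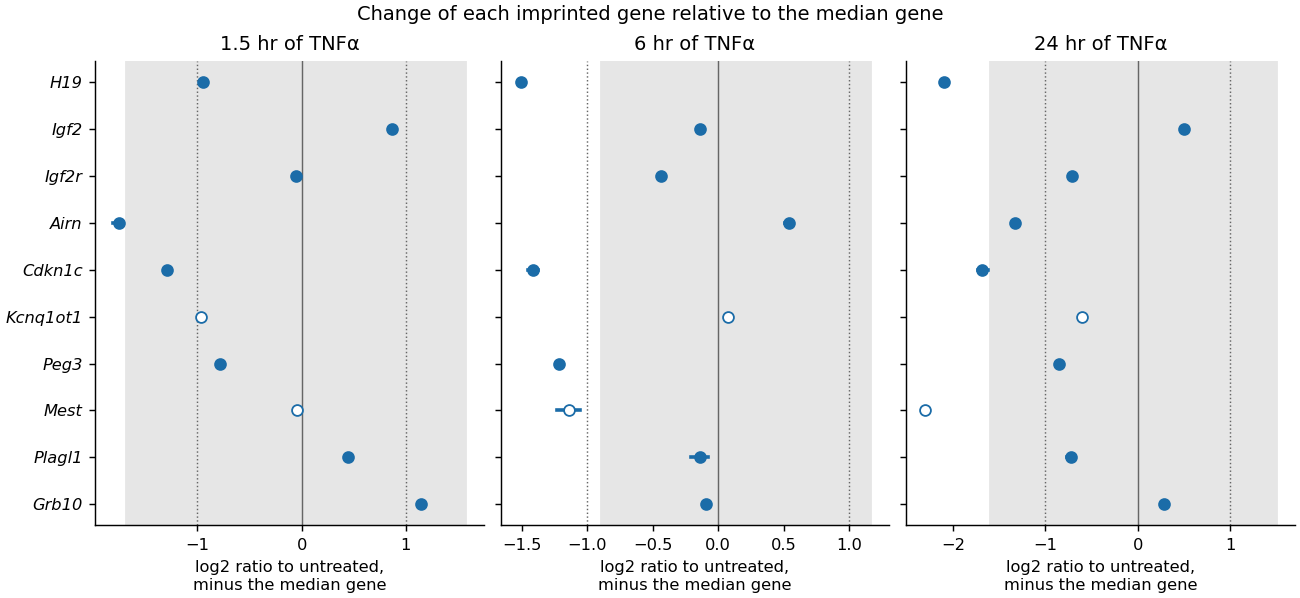
Log2 ratio of each imprinted gene to the untreated library minus that of the median gene, at 1.5, 6 and 24 hr; points are the mean of R1 and R2, short bars join the R1 and R2 ratios, open points did not reach a mean of 100 units, dotted lines mark 2-fold and the grey band runs from the 5th to the 95th percentile of 6251 genes. At 1.5 hr Airn lies left of the band, which starts at -1.68, at 6 hr H19, Cdkn1c, Peg3 and Mest lie left of -0.89, and at 24 hr H19, Cdkn1c and Mest lie left of -1.60.

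H3K4me3 in untreated MEFs was read from the 11157 deposited peaks. A peak lay within 1000 bp of an annotated start in 7 of 10 members, and in 52.9% of the 21016 genes with a known position. Many of those genes were silent. The share was 82.9% of the 11924 genes with at least 10 units untreated, a level that all 10 members reached. It was 90.3% of the 5812 genes with at least 100 units. Each of the 7 peaks covered a start. Igf2r had a peak of 21.1-fold enrichment over input with 1170 tags, and Airn had its own, inside Igf2r, of 35.4-fold with 1008 tags. Kcnq1ot1 also had a peak of 35.4-fold, with 1356 tags, although its RNA was the lowest of the members. The highest enrichment was at Peg3 (40.7-fold, 1077 tags), with Grb10 at 28.2-fold and Plagl1 at 24.1-fold. The Igf2 peak (21.7-fold, 662 tags) was 7047 bp long, longer than 96.3% of all peaks, and covered 8 of its 10 annotated starts. The median peak of the whole list was 45.5-fold enriched and 3187 bp long, so all 7 were below the median in enrichment.

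The 3 members without a listed peak were H19, Cdkn1c and Mest, whose nearest peaks were 41862, 40271 and 29066 bp from a start. H19 was among 15 of the 100 genes of at least 10000 units that had none. Of the 927 genes with at least 1000 units untreated, 838 (90.4%) had one. The lowest fold enrichment in the deposited list was 20, so a gene without an entry may still carry the mark at a lower enrichment. The same 3 genes were called or measured at least 2-fold lower at 6 and 24 hr; the members are too few to read anything from this.

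**Figure D4:**
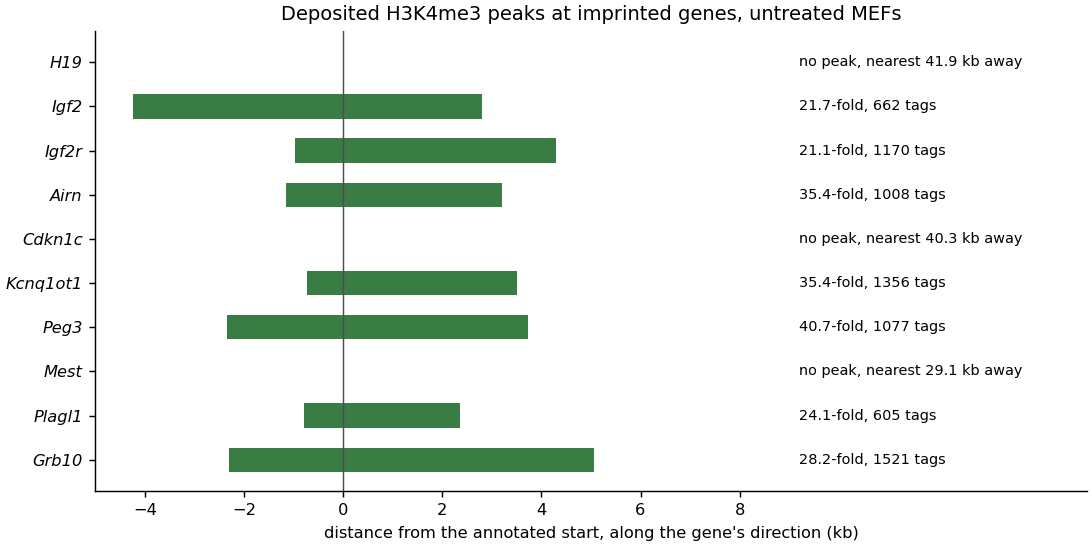
Extent of the deposited H3K4me3 peak at each imprinted gene in untreated MEFs, as distance in kb from the annotated start along the direction of the gene (1 ChIP-seq library), with its fold enrichment and tags at the right. The 7 bars cross the start at 0, and H19, Cdkn1c and Mest have no bar, their nearest peaks being 41862, 40271 and 29066 bp away.

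Promoter windows are shown for starts that differ in this mark. Each runs from 250 bases before to 50 bases after a RefSeq start (sequence from RefSeq on GRCm38.p6, placed on mm9 by its exact and single match), is printed 5′ to 3′ along the gene, and has each CG pair, the site of DNA methylation, in capitals. The Igf2r and Airn windows are both under a peak and are shown for their contrast in CG content, that of Igf2 is the richest in CG of its windows, that of Kcnq1ot1 belongs to the lowest RNA, which had a peak all the same, and that of Mest has no listed peak. In the order below they lie at chr17:12962523-12962822 (minus), chr17:12933927-12934226 (plus), chr7:149844660-149844959 (minus), chr7:150482403-150482702 (minus) and chr6:30687800-30688099 (plus).
Igf2r: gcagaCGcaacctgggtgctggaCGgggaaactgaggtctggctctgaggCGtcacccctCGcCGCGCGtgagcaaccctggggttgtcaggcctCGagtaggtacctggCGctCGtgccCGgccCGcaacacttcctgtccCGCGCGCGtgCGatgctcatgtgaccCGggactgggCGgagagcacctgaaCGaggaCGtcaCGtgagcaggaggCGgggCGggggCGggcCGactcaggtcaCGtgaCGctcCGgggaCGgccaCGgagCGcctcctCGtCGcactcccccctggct
Airn: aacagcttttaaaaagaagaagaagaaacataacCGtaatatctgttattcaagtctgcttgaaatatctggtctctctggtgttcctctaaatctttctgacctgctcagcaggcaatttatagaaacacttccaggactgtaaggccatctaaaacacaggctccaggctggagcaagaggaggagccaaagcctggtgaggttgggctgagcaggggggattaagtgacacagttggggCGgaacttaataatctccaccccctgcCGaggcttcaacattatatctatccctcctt
Igf2: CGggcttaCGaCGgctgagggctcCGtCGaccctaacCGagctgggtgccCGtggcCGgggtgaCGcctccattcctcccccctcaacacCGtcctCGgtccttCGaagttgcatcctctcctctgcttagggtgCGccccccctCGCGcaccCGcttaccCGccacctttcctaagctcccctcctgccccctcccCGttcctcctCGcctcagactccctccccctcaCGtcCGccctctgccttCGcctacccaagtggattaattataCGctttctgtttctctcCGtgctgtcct
Kcnq1ot1: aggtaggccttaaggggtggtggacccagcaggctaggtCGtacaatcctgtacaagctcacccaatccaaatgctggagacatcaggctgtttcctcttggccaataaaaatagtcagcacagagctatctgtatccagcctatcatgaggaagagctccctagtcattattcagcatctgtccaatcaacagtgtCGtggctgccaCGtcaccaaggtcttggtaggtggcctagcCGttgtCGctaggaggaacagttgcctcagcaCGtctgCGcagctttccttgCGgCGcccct
Mest: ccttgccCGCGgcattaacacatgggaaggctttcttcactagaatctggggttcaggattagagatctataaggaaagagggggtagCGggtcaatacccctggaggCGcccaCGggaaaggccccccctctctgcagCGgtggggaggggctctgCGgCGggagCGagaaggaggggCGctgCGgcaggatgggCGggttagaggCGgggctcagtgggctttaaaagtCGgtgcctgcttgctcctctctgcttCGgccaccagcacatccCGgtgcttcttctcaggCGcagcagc
These windows hold 34 CG pairs for Igf2r, 3 for Airn, 24 for Igf2, 9 for Kcnq1ot1 and 17 for Mest. Over the 14 windows of 8 members the count ran from 2 to 45 with a median of 13.5, where the median of 32851 windows of the mouse was 7. A peak covered windows both rich and poor in CG, as the Igf2r and Airn windows show, and the Mest windows (8, 17 and 17 CG pairs) were under none.

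TGCCGC, the core motif of ZFP57, a zinc finger protein that keeps methylation at imprinted regions, was searched in the same 14 windows on both strands. It was in 5 of them and in 11.6% of all windows. The motif holds a CG pair, and the member windows had more of these (median 13.5 against 7). The share of all windows is thus not matched for CG content, and no excess can be read from it. The 5 were the Plagl1 window, 1 each of Grb10 and Igf2, and 2 of Mest that overlap nearly whole and so share their matches. A match describes letters in these windows and says nothing of binding.

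The genes around the members were taken from lists of their domains. Beside H19, 2 of 7 listed neighbours had a mean of at least 100 units, and both were called lower at 1.5 and 24 hr, where 17.5% and 15.6% of all genes were, and not at 6 hr. Lsp1, an actin-binding protein 117 kb from H19, measured 6198, 2708, 1931 and 1353 units, or -1.62, -0.95 and -2.29 relative to the median gene. Mrpl23, a protein of the mitochondrial ribosome 45.3 kb away, was at -1.40, -0.25 and -1.27. H19 itself was called lower at 6 and 24 hr and not at 1.5 hr, so 24 hr was the one time with a call for all 3. Igf2 lies 88.7 kb away on the other side and was not called. Ins2 and Th, the next genes beyond Igf2, were listed at 0 in all libraries.

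Around Kcnq1ot1 and Cdkn1c 6 of 12 listed neighbours reached the level. At 1.5 hr 2 were called higher and 1 lower, at 6 hr 0 in either direction, and at 24 hr 3 higher and 1 lower. Of all genes, 16.1%, 7.37% and 14.6% were called higher at these times and 17.5%, 3.52% and 15.6% lower. Cd81, a tetraspanin, was at 1.49, 0.63 and 1.52, Nap1l4, a histone chaperone, at 1.22, 0.62 and 1.02, and Tnfrsf23, a decoy receptor of the TNF receptor family, at 0.39, 0.20 and 1.03. Tssc4 was the one called lower, at -1.25, -0.86 and -1.26. Of these 6 neighbours Tssc4 alone was below the median gene at all 3 times, as Cdkn1c was. Within bins of GC content Cd81 kept its calls, while Nap1l4 (0.90 and 0.77 at 1.5 and 24 hr), Tnfrsf23 (-0.03 at 1.5 hr and 0.67 at 24 hr) and Tssc4 (-0.41 and -0.54) fell short of 2-fold.

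**Figure D5:**
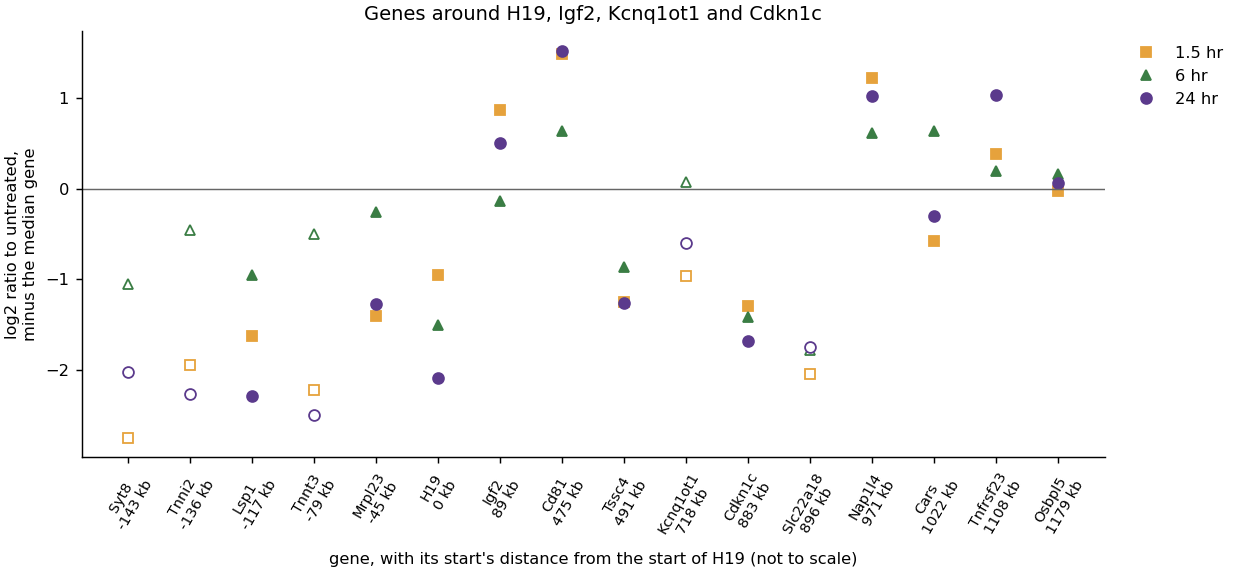
Log2 ratio to the untreated library minus that of the median gene at 1.5 hr (squares), 6 hr (triangles) and 24 hr (circles) for 16 genes around H19, Igf2, Kcnq1ot1 and Cdkn1c, ordered along the chromosome with each start's distance from the H19 start; open symbols did not reach a mean of 100 units. Lsp1, Mrpl23 and H19 lie below 0 at all 3 times, Igf2 is at 0.87 and 0.51 at 1.5 and 24 hr, and Cd81 and Nap1l4 lie above 0.

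Around Igf2r and Airn 5 of 10 listed neighbours reached the level, of which 2 were called higher at both 1.5 and 24 hr and 1 at 6 hr, with 0 lower. For this and the next list, the shares of all genes called higher were 16.1%, 7.37% and 14.6% at 1.5, 6 and 24 hr. Those called lower were 17.5%, 3.52% and 15.6%. Sod2, the mitochondrial superoxide dismutase and a known NF-κB target, was at 2.38, 1.90 and 2.52, and Mrpl18 at 1.23, 0.74 and 1.16. The organic cation transporters Slc22a2 and Slc22a3, known to be silenced by Airn in other tissues, were at 0 or at most 0.06 units. Around Grb10 and Plagl1 3 of 9 reached the level, of which Sf3b5 (1.86, 0.41 and 1.55) and Ltv1 (1.30, 1.00 and 1.17) were called higher and Utrn (-0.30, -0.33 and -0.64) was not called. Within bins of GC content Sod2, Mrpl18 and Sf3b5 kept their calls at 1.5 and 24 hr and Ltv1 lost them, at 0.73 and 0.64. Untreated, Sod2, Mrpl18 and Ltv1 stood at 51.1, 67.3 and 62.1 units, so they reached the level only through treated libraries. The level thus favours genes called higher, and the direction of these counts is no result about the neighbours. None of the 7 listed neighbours of Mest and none of the 3 of Peg3 found in the table reached the level.

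Among 38 imprinted genes of other domains 15 reached the level. At 1.5 hr 3 were called higher and 3 lower, at 6 hr 1 higher and 0 lower, and at 24 hr 3 higher and 4 lower. The shares of all genes were 16.1%, 7.37% and 14.6% higher and 17.5%, 3.52% and 15.6% lower at these times. Gnas, the stimulatory G protein subunit, was called higher at every time, at 2.04, 1.34 and 2.49, with 1762, 9732, 2692 and 10538 units. Meg3, a noncoding RNA, measured 23341, 7276, 19825 and 8649 units, or -2.11, 0.50 and -1.53, and Rtl1, a retrotransposon-derived gene beside it, was at -4.01, 0.28 and -3.55. Meg3 and Rtl1 had the order of libraries seen in Airn, and the median of the 15 was 0.12, 0.10 and 0.39, above the median gene where that of the members was below it. That contrast did not hold at 6 hr within bins of GC content, where the middle value of the 15 was that of Mcts2, at -0.24. Dcn, an extracellular proteoglycan, was called higher at 24 hr alone, at 1.41, but within bins of GC content it was at -0.78, -0.42 and 0.63.

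Of 12 listed genes of the IGF pathway 9 reached the level. The receptor Igf1r, which carries the growth signal of IGF2, was at -0.72, 0.30 and -0.79 and was not called. Irs1, the adaptor below it, was called lower at each time, at -1.63, -1.13 and -1.32, whereas Akt1, a kinase further down, was at 1.43, 0.53 and 1.27. M6pr, the other mannose 6-phosphate receptor beside Igf2r, was at 1.57, 0.77 and 1.63. The ligand Igf1 was at 0.11, -0.77 and -1.12, called lower at 24 hr. In all, 2 were called higher and 1 lower at 1.5 hr, 0 and 1 at 6 hr, and 2 and 2 at 24 hr, which is near the shares of all genes at 1.5 hr (16.1% higher and 17.5% lower) and 24 hr (14.6% and 15.6%). Within bins of GC content Irs1 and Akt1 kept these calls, M6pr was at 0.82 and 0.97 at 1.5 and 24 hr, short of 2-fold, and Igf1 was at -0.84, -1.41 and -1.99.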

How the data were processed

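RNA was measured in 4 libraries and H3K4me3 in 1 ChIP-seq library with 1 input, grouped by their labels. One label field of the 24 hr library describes a ChIP extraction, whereas the other fields (title, treatment, source of the library) describe RNA-seq, as which it was treated. Columns were tied to times by the library names that the study's methods material gives. The authors mapped reads to mm9 with TopHat 1.1.3 and made the deposited RPKM values per RefSeq transcript with a script of their own. How that script treated strand and reads that match several entries is not given in the sources used here. The authors mapped ChIP reads with Bowtie 0.12.6 and called peaks with MACS, whose version is not given in the sources used here, on the single ChIP library. The deposited peak list holds, for each peak, the tag count, a log-scaled p score, the fold enrichment and the FDR in percent, and the score was not used.

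From these values the mean of R1 and R2 was taken per library, 1 unit was added, and log2 ratios to untreated were centred on the median of 6251 genes with a mean of the 8 columns of at least 100 units. Calls were made at 2-fold. The files give no read counts. For short hairpin entries (20 to 44 per column), value times length fell within 0.05 of a whole step in 84.0% to 96.4% of cases, and 1 step was read as 1 covered base.

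Named were all 10 members, the 3 genes nearest in pattern to H19 and to Igf2, up to 4 genes per list with the largest ratio at any time, Malat1 and Neat1, and the check and marker genes. Igf1r, Ctcf, Zfp57, Dnmt3l, Ins2, Th, Slc22a2 and Slc22a3 fall outside that rule and were added with their values known. The members and lists were chosen with earlier results of these data known. Positions and exons came from GENCODE release M1 on mm9, and the Kcnq1ot1 start from its RefSeq window. Promoter and miRNA sequences were RefSeq's (GRCm38.p6), and all 14 windows matched mm9 exactly once. There was no window for H19 and Cdkn1c. GC content was found for 6107 of 6251 genes (97.7%). The steps were run on simulated data, where 200 of 200 altered genes were recovered at each time with 0 false calls. The changes put in were far past 2-fold, the noise was small and there was no trend with GC content. This outcome was therefore assured, and it checks the code alone, not calls near 2-fold. Alternatives were other scalings (as deposited, to the sum, a trimmed mean of log ratios, the median of coding genes, 20 bins of GC content), pseudocounts, level filters, fold thresholds, each column alone, the mean over a gene's entries, and other limits on peaks. Python 3.11.15, numpy 2.4.6, pandas 2.3.3, pysam 0.24.0, samtools 1.23.1 and matplotlib 3.10.9 were used.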

Additional observations from a re-analysis of the deposited data

How the results depend on the processing

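No paired analysis was possible because each time had 1 library, and for the same reason no library could be left out. Of the 8 members past the level filter, 5 were called at some time, 8 at a threshold of 1.5-fold and 3 at 3-fold. The count called higher at 1.5 hr was 1, and 2 as deposited, scaled to the sum, with no level filter or at 1.5-fold, and 0 at 3-fold. The count called lower at 1.5 hr was 2, and 1 as deposited, with no level filter, with the mean over a gene's entries or at 3-fold, and 4 at 1.5-fold. At 6 hr 3 were lower, and 0 at 3-fold. At 24 hr 3 were lower, and 6 at 1.5-fold. Within bins of GC content the counts at 1.5 hr kept their size with other members in them: Igf2 (1.32) was higher in place of Grb10 (0.63), and Peg3 (-1.36) lower in place of Cdkn1c (-0.45). Of the listed neighbours and other imprinted genes 18 were called, 28 with a level of 10 units and 49 with no filter. The log2 quotient of H19 to Igf2 at 0, 1.5, 6 and 24 hr was 3.82, 2.02, 2.44 and 1.23 with the mean over entries, and 3.76, 1.97, 2.36 and 1.19 with 100 units added. Peaks of at least 30-fold left 3 members with one in place of 7. The causes were not tested. No member's call turned to the opposite direction under any alternative. Depth limits Kcnq1ot1 and, at 6 and 24 hr, Mest, each at about 1 read over each base.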

Other observations

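Among 19 listed genes that set or keep imprints, such as DNA methyltransferases, cohesin subunits and CTCF, 11 reached a mean of 100 units, and 1 was called, in the higher direction, at 1.5 and 24 hr and 0 at 6 hr. The one called was Rad21, a cohesin subunit, at 71.1, 216, 69.4 and 164 units, or 1.16 and 0.70 relative to the median gene at 1.5 and 6 hr. Rad21 reached the level only through the 1.5 and 24 hr libraries, those in which it was called. The level also left out genes that went lower, such as Dnmt3a, at 139 units untreated and -1.20 at 24 hr. Over all genes, 16.1%, 7.37% and 14.6% were called higher at 1.5, 6 and 24 hr, and 17.5%, 3.52% and 15.6% lower. Ctcf, the insulator protein that binds between H19 and Igf2, measured 108, 137, 59.7 and 119 units and was at -0.08, -0.11 and 0.05, the last turning to -0.48 within bins of GC content. Zfp57, measured 366, 414, 239 and 383 units, and Trim28, its corepressor partner, was at -0.68, -0.91 and -0.75. The de novo methyltransferase cofactor Dnmt3l, known from germ cells, was listed at 0 in the untreated library and at most at 2.93 units after it. Within bins of GC content Rad21 was at 0.41, 0.34 and 0.44 and no longer called, and Trim28 was at 0.16 at 1.5 hr. The listed genes that set or keep imprints and reached the level were thus, Rad21 apart, within 2-fold of the median gene at all 3 times.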
